A study of Homo sapiens with 7 samples.

Results

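These are 10 genes that gave next to no reads in one of the study's ARID1A-/- neuroblastoma lines while the other ARID1A-/- line expressed them. They were picked by name for that pattern, from the counts of the same libraries described here, out of 28517 entries in the deposited tables. ARMCX5, AFF2, MAP10, SLITRK1 and SPIN3 were the 5 without signal in ARID1A-/- line 1, and TRIM58, HDHD3, RDM1, TRIM21 and EFS the 5 without signal in ARID1A-/- line 2. Because these values chose the genes, their levels below are a description and carry no test.

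NGP is a human neuroblastoma cell line with MYCN amplification. RNA was sequenced from control NGP cells (2 libraries), ARID1A-/- line 1 (2 libraries), ARID1A-/- line 2 (2 libraries) and an ARID1A+/- line (1 library), all grown under the same puromycin selection per the labels. The first library of each replicated group was made with the SMARTer kit, and its repeat and the ARID1A+/- library with the KAPA kit. The labels do not say whether a line is a single clone, how the mutations were made, or whether repeats stem from separate cultures. The p-values therefore rest on the spread of these libraries alone, and that spread may be technical. With 1 control line, a difference between a mutant line and control cannot be told apart from a difference between any pair of NGP sublines.

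ARID1A belongs to BAF, a SWI/SNF chromatin remodelling complex that slides and evicts nucleosomes and helps keep enhancers and promoters accessible. Neuroblastoma arises from sympathoadrenal precursors of the neural crest, and its adrenergic state is maintained by transcription factors such as HAND2, GATA3 and ISL1. Among the 10 genes are ubiquitin ligases of the tripartite motif (TRIM) family, adhesion and scaffold proteins, and readers of chromatin. DNA copy number, chromatin and DNA methylation were not analysed here.

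Depth ranged from 24445301 to 43644361 counted reads per library. Since mutant ARID1A transcripts can persist, the RNA is only a partial check of the labels: ARID1A was at 22.3 and 22.0 RPKM (read counts scaled by gene length and library total) in control, 16.7 and 17.2 in line 1, 14.2 and 13.8 in line 2, with 19.9 in the ARID1A+/- library. The adrenergic markers HAND2 (276 to 349 RPKM), GATA3 (70.8 to 154), ISL1 (23.98 to 52.2) and MYCN (606 to 3663) were present in every library. The summed level of 4 immune markers was 3.39 to 4.97 RPKM, most of it CD68 (2.63 to 4.78) with LYZ at up to 1.10, while CD3E was at 0 and PTPRC at most 0.022. That of 4 endothelial markers was at most 0.219 RPKM, with PECAM1 at 0. The summed level of 6 fibroblast markers was 186 and 201 RPKM in line 1, 41.4 and 30.1 in line 2, 68.2 and 69.5 in control and 53.1 in the ARID1A+/- library. Most of that sum was COL1A1 in the control and ARID1A-/- libraries. In the ARID1A+/- library COL1A1 was at 17.09 RPKM, and most of the sum came from PDGFRB, LUM and COL3A1 together with DCN. COL1A2 was at most 0.03 RPKM in every library. The part of these differences in the results below was not tested.

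The 5 genes missing from line 1 are described first. ARMCX5, a member of the X-linked armadillo-repeat family, had 604 and 414 counts in control (4.54 and 5.56 RPKM, SMARTer library first), 750 and 598 in line 2 (6.04 and 6.79 RPKM), 704 in the ARID1A+/- library (6.99 RPKM) and 0 in both libraries of line 1. MAP10, a microtubule-associated protein that acts at the spindle and in cytokinesis, had 339 and 202 counts in control (1.42 and 1.51 RPKM), 324 and 251 in line 2 (1.46 and 1.59 RPKM), 252 in the ARID1A+/- library (1.40 RPKM) and 0 in both libraries of line 1. For both genes line 1 stood apart from 5 libraries that lay close together. Set against a floor of 3 counts over the pair of libraries, control was at least 367-fold higher than line 1 for ARMCX5 and at least 195-fold higher for MAP10.

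SPIN3, one of the spindlin family of readers of histone methylation, had 617 and 292 counts in control (2.48 and 2.09 RPKM), 1427 and 1033 in line 2 (6.14 and 6.26 RPKM), 717 in the ARID1A+/- library (3.80 RPKM) and 1 and 0 in line 1. It was therefore highest in the line that kept it, where its depth-scaled count was 2.56-fold that of control (95% interval 2.37 to 2.76 from counting error alone). Against the single read in line 1, control was 983-fold higher (176 to 38862) and line 2 was 2511-fold higher (450.3 to 99235).

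AFF2 and SLITRK1 were uneven outside line 1. AFF2, also known as FMR2, encodes a nuclear protein of the AF4/FMR2 family whose loss causes FRAXE intellectual disability. It had 244 and 230 counts in control (0.399 and 0.672 RPKM), 254 and 867 in line 2 (0.445 and 2.14 RPKM), 41 in the ARID1A+/- library (0.0886 RPKM) and 0 in both libraries of line 1. The KAPA library of line 2 stood well above the SMARTer library of the same line. SLITRK1, a neuronal adhesion protein with roles at synapses and in neurite growth, had 207 and 137 counts in control (0.915 and 1.08 RPKM), 305 and 122 in line 2 (1.44 and 0.814 RPKM), 46 in the ARID1A+/- library (0.269 RPKM) and 0 in both libraries of line 1. Both genes were also lower in the ARID1A+/- library: the control library made with the same kit was 7.29-fold higher for AFF2 (5.21 to 10.4) and 3.87-fold higher for SLITRK1 (2.75 to 5.53). Control was at least 171-fold higher than line 1 for AFF2 and at least 124-fold higher for SLITRK1.

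Of the 5 genes missing from line 2, only EFS was expressed in control, line 1 and the ARID1A+/- library alike. EFS, a CAS-family docking protein for SRC-family kinases, had 1449 and 553 counts in control (10.6 and 7.25 RPKM), 1454 and 901 in line 1 (11.3 and 9.06 RPKM), 1682 in the ARID1A+/- library (16.3 RPKM) and 1 and 3 in line 2. The ARID1A+/- library was the highest of the 7, at 2.34-fold the control library of the same kit (2.12 to 2.58). Control was 530.1-fold higher than line 2 (207 to 1947).

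TRIM21 and RDM1 were missing from the ARID1A+/- library as well as from line 2. TRIM21, a cytosolic receptor for antibodies and a ubiquitin ligase known as the autoantigen Ro52, had 964 and 342 counts in control (11.5 and 7.25 RPKM), 931 and 1074 in line 1 (11.7 and 17.5 RPKM), 1 and 1 in line 2, with 0 in the ARID1A+/- library. Control was 692-fold higher than line 2 (191 to 5717) and, within the KAPA kit, at least 148-fold higher than the ARID1A+/- library. RDM1, a RAD52 motif protein linked to DNA repair, had 46 and 37 counts in control (0.806 and 1.16 RPKM), 70 and 70 in line 1 (1.29 and 1.68 RPKM), 0 in both libraries of line 2 and 2 in the ARID1A+/- library. These counts are small, and they put control at least 29.3-fold above line 2.

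TRIM58 and HDHD3 went against a description as genes lost from line 2, because control and the ARID1A+/- library hardly had them either. TRIM58, a ubiquitin ligase best known from maturing red cells, had 810 and 729 counts in line 1 (3.04 and 3.55 RPKM), against 18 and 4 in control (0.064 and 0.0254 RPKM) and 0 in the libraries of line 2 and of the ARID1A+/- line. HDHD3, a protein of the haloacid dehalogenase-like hydrolase family, had 178 and 146 counts in line 1 (2.21 and 2.35 RPKM), against 13 and 1 in control (0.153 and 0.021 RPKM) and 0 in the libraries of line 2 and of the ARID1A+/- line. Line 1 was the one line that expressed them, at 64.7-fold the control count for TRIM58 (42.6 to 104) and 21.4-fold for HDHD3 (12.6 to 39.6).

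**Figure D1:**
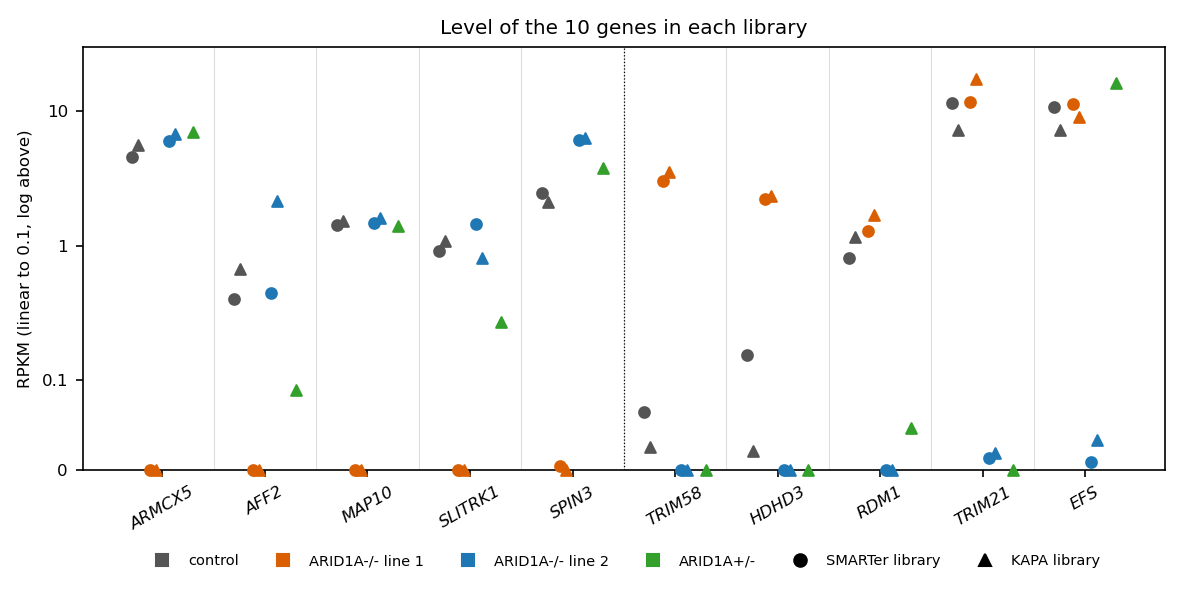
RPKM of the 10 genes (vertical axis, linear up to 0.1 and logarithmic above) in each of the 7 libraries, with 1 point per library, the line shown by colour and the kit by the shape; a dotted line divides the genes missing from line 1 and from line 2. ARMCX5 and MAP10 are missing from line 1 alone and EFS from line 2 alone, TRIM21 and RDM1 are also missing from the ARID1A+/- library, and TRIM58 and HDHD3 stand out in line 1.

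Across the 10 genes, 7 had no read in either library of the line in which they were missing, 4 of the 5 in line 1 and 3 of the 5 in line 2. The lack of reads was seen with both kits for each of the 10, as their choice required. In control, 7 were at 0.5 RPKM or more in both libraries. In the ARID1A+/- library, 5 were at 0.1 RPKM or less, AFF2 among the genes missing from line 1 and TRIM58, HDHD3, RDM1 and TRIM21 among those missing from line 2, and 3 of these had no read. The gene lengths used for RPKM ran from 1308 bases (RDM1) to 14006 bases (AFF2), so a low RPKM of AFF2 rested on more reads than the same RPKM of RDM1.

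To set the 10 genes against the whole table, every entry was asked for at most 0.1 RPKM in both libraries of one ARID1A-/- line and at least 0.5 RPKM in both libraries of the other. In line 1, 58 entries met this, 0.417% of those at 0.5 RPKM or more in line 2, and in line 2, 72 entries met it, 0.52% of those at 0.5 RPKM or more in line 1. Of the 10 genes, 9 were among them. AFF2 was not, because it reached only 0.445 RPKM in the SMARTer library of line 2. At the border, BEND6 was just inside with 0.097 RPKM in line 1 and SPZ1 just outside with 0.101, and AZGP1 was just inside with 0.097 RPKM in line 2 and APOC1 just outside with 0.107.

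The entries that shared the pattern were divided by their levels in control and in the ARID1A+/- library. Of the 58 in line 1, 29 were at 0.5 RPKM or more in both control libraries and 17 under 0.5 in both, and of the 72 in line 2 the numbers were 33 and 27. The ARID1A+/- library was at 0.1 RPKM or less for 31 of the 58 (53.4%) and for 21 of the 72 (29.2%). No read at all in either library of the silent line was found for 13 of the 58 and 26 of the 72, of which 5 and 9 were genes with names other than systematic ones.

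**Figure D2:**
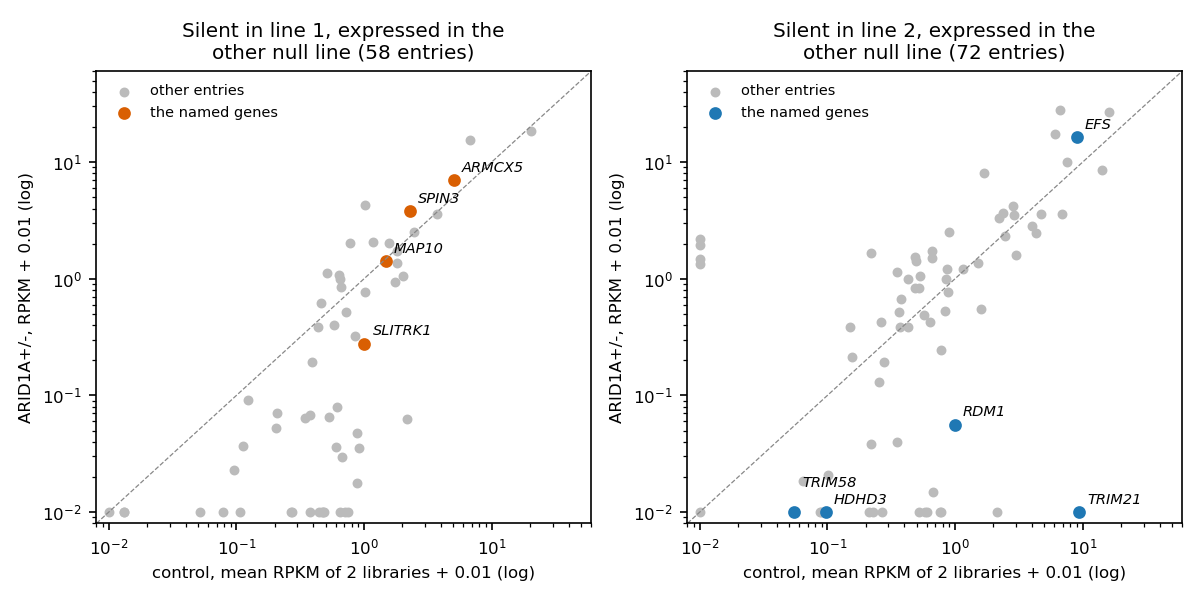
Mean control RPKM (horizontal) against ARID1A+/- RPKM (vertical), both plus 0.01 on logarithmic axes with a dashed line of equality, for the 58 entries silent in line 1 and the 72 silent in line 2, with those of the 10 genes that met the limits named. Entries spread from the lower left, where control and the ARID1A+/- library are also low (TRIM58, HDHD3), to the upper right, where both express the gene (ARMCX5, EFS).

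Named genes of the same pattern with the highest level in the expressing line showed the same kinds of split. Among those silent in line 1, PLA2G3, a secreted phospholipase A2, was at 4.80 and 8.77 RPKM in control, 0.0281 and 0.0731 in line 1, 6.96 and 6.49 in line 2, with 15.3 in the ARID1A+/- library, so line 1 alone lacked it, as for ARMCX5 and MAP10. The other 4 were low or absent in control too: NTS, the precursor of the peptide neurotensin, was at 15.97 and 7.49 RPKM in line 2 and at most 0.066 in the other libraries, and NLRP2, HS3ST4 and AJAP1 were at most 0.535 RPKM in control and at 0 in the ARID1A+/- library. Among those silent in line 2, FGF13, an intracellular FGF-like regulator of sodium channels, was at 19.5 and 12.5 RPKM in control, 5.28 and 8.62 in line 1, 0.0425 and 0.0799 in line 2, with 26.7 in the ARID1A+/- library. CPXM1, SIMC1 and HSPA2 were likewise present everywhere but in line 2, as for EFS. NUDT16, an RNA-decapping hydrolase, was at 2.80 and 2.62 RPKM in line 1 and at most 0.145 elsewhere, as for TRIM58 and HDHD3.

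Of the 10 genes, 3, ARMCX5, AFF2 and SPIN3, lie on chromosome X, and all 3 are among the 5 missing from line 1. MAP10 and TRIM58 lie on chromosome 1, SLITRK1 on 13, HDHD3 on 9, RDM1 on 17, TRIM21 on 11 and EFS on 14. Among the scanned entries that matched a protein-coding gene of RefSeq, 7 of 43 silent in line 1 (16.3%) and 6 of 40 silent in line 2 (15.0%) were on chromosome X, against 424 of the 11980 matched entries tested (3.54%). These shares are descriptions of entries chosen by their values. In the GENCODE annotation MAP10 and SLITRK1 have a single exon. MAP10, TRIM58, HDHD3, RDM1 and TRIM21 overlap no other annotated gene. ARMCX5 overlaps the readthrough gene ARMCX5-GPRASP2 on its own strand, and SPIN3 overlaps NBDY on the other strand. Whether the reads were counted by strand is not given in the sources used here, so the counts of ARMCX5 and SPIN3 in the expressing lines may include reads of the overlapping gene. In line 1, ARMCX5-GPRASP2 had 637 and 542 counts while ARMCX5 had 0.

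The promoters of the genes differed in their content of CG dinucleotides, the sites of DNA methylation. The window of 250 bases before the start was taken from RefSeq (GRCh38.p14, a later build than that of the counts), where 9 of the 10 genes had an entry, and AFF2 was left out because its window lies within the gene. The windows of 4 are printed to show the range, 5′ to 3′ on the strand of the gene, with CG pairs in capitals: MAP10 at chr1:232805166-232805415 (plus strand), TRIM58 at chr1:247856937-247857186 (plus strand), TRIM21 at chr11:4393703-4393952 (minus strand) and EFS at chr14:23365173-23365422 (minus strand).
MAP10: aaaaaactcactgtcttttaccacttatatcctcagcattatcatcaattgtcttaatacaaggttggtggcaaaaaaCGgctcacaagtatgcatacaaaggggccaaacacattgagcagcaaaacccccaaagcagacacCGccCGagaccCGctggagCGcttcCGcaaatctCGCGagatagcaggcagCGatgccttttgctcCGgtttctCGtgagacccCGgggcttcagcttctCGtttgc
TRIM58: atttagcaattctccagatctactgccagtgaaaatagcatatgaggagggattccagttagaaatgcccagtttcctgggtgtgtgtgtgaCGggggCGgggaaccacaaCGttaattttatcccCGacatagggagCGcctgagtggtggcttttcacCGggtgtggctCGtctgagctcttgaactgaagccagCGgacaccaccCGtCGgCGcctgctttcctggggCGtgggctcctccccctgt
TRIM21: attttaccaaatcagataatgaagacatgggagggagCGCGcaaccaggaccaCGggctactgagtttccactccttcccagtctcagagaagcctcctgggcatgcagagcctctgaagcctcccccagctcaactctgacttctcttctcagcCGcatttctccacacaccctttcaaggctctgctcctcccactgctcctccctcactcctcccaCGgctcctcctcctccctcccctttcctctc
EFS: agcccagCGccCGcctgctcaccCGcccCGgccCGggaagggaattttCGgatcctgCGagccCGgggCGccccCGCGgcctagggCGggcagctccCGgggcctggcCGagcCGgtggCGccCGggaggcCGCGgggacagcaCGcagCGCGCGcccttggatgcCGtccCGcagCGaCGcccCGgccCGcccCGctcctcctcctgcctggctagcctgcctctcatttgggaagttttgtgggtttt

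The EFS window held 30 CG pairs and that of HDHD3 28, while MAP10 had 13, TRIM58 12, SPIN3 10, SLITRK1 6 and TRIM21 5. The window of ARMCX5, which starts 309 bases inside the outermost start of the gene, had 14. The motif searched was CG, which reads the same on both strands. As many pairs as in EFS were found in 12.2% of the 27305 RefSeq promoters, and as many as in TRIM21 in 65.0%. The median over the 8 genes was 12.5, beside 11 over all promoters, 21 over the promoters of 9914 tested genes and 16 over 50 other entries silent in one line. The 4 windows of genes missing from line 1 held 6 to 14 pairs, and the 4 of genes missing from line 2 held 5 to 30. Methylation was not analysed here.

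Genes next to the 10 were tested, since position and not level chose them. Of the 5 nearest protein-coding genes on each side of every member, 84 of 100 were in the tables and 43 were expressed enough to test. Between line 1 and line 2, 10 of the 43 passed (23.3%, edgeR adjusted p under 0.05), against 12.8% of all genes tested (5.7% higher and 7.12% lower in line 1). They went both ways: 5 were lower and 5 higher in the line in which their member was missing than in the other. Among the 10, ARMCX5-GPRASP2 overlaps ARMCX5 and may hold some of its reads, so its call may not be fully independent of how the genes were chosen. It also shares reads with GPRASP2, another of the 10, and its counts lay near those of GPRASP2 in every library. In the SMARTer libraries these were 795 and 754 in control and 637 and 665 in line 1, where ARMCX5 had 604 and 0. The share was 9 of 29 beside the genes missing from line 1 and 1 of 14 beside those missing from line 2, a difference that was not tested. The median size of the difference was 0.27 log2 units, beside 0.25 over all genes. Without a term for the kit 5 of the 43 passed, beside 408 of all 14711 genes tested.

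Next to ARMCX5, TMSB15A was also low in line 1. This thymosin beta, which binds actin monomers, was at 53.4 and 95.02 RPKM in control, 43.8 and 83.8 in line 2, 137 in the ARID1A+/- library and 0.508 and 1.65 in line 1. It fell in line 1, with a log2 difference from line 2 of -5.91 ± 0.23 (± standard error here and below, edgeR adjusted p = 0.00023) and from control of -6.18 ± 0.23 (edgeR adjusted p = 0.00014). GPRASP1, too low to test, had 74 and 41 counts in control, 5 and 3 in line 1, 62 and 85 in line 2, with 124 in the ARID1A+/- library. The readthrough gene ARMCX5-GPRASP2 (log2 difference -1.08 ± 0.19, edgeR adjusted p = 0.016) and GPRASP2 (-0.98 ± 0.20, edgeR adjusted p = 0.023) share reads, so they count as one uncertain observation. Both differed because line 2 was high: GPRASP2 was at 3.83 and 4.20 RPKM in control, 3.56 and 3.91 in line 1 and 6.01 and 9.42 in line 2. Both calls were lost without the KAPA library of line 2, at -0.78 and -0.67, and GPRASP2 also without the SMARTer control library, at -0.97. BHLHB9, in the same cluster, differed by -0.08. Against control, GPRASP2 (-0.10) and BHLHB9 (-0.01) did not pass in line 1, while TMSB15A and GPRASP1 were low there as ARMCX5 was.

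Beside SLITRK1 the related gene SLITRK5 was also low in line 1. It was at 2.60 and 2.64 RPKM in control, 0.228 and 0.158 in line 1, 1.21 and 1.12 in line 2, with 1.84 in the ARID1A+/- library. The difference between the lines was -2.54 ± 0.26 (edgeR adjusted p = 0.0027). SLITRK5 fell against control in both lines, with log2 differences of -3.75 ± 0.27 in line 1 (edgeR adjusted p = 0.00068) and -1.21 ± 0.23 in line 2 (edgeR adjusted p = 0.020). POU4F1, a sensory neuron transcription factor and another neighbour, was higher in line 1 than in line 2 by 1.15 ± 0.15 (edgeR adjusted p = 0.0061). The nearest tested gene on each side did not pass: SPRY2 differed by -0.00 ± 0.18 (edgeR adjusted p = 0.99) and SLITRK6 by 1.10 ± 0.34 (edgeR adjusted p = 0.088).

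Around MAP10, all 8 tested neighbours had a positive difference, from 0.02 to 1.21, so they were nominally higher in line 1, which lacked MAP10, than in line 2. SIPA1L2 (1.21 ± 0.11, edgeR adjusted p = 0.0020), NTPCR (0.95 ± 0.20, edgeR adjusted p = 0.025) and TSNAX (0.72 ± 0.13, edgeR adjusted p = 0.017) passed, the first and second being the nearest on each side. Against control these 3 genes did not pass in line 1 (0.29, 0.45 and 0.21). In line 2, SIPA1L2 (-0.92 ± 0.11, edgeR adjusted p = 0.0038) and TSNAX (-0.51 ± 0.13, edgeR adjusted p = 0.048) passed as lower than control, and NTPCR (-0.49 ± 0.20) did not pass. All 8 neighbours were nominally lower than control in line 2 (-0.19 to -0.96), while in line 1 they went both ways (-0.86 to 0.45). The call of NTPCR was lost without the SMARTer control library (0.96) or the KAPA library of line 2 (0.63), and that of TSNAX without either library of line 2 (0.75 and 0.71).

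Near AFF2, the nearest tested genes FMR1 (-0.10 ± 0.13, edgeR adjusted p = 0.68) and IDS (0.19 ± 0.11, edgeR adjusted p = 0.32) did not pass. MAGEA9B, a cancer-testis antigen gene, was higher in line 1 than in line 2 by 6.37 ± 0.72 (edgeR adjusted p = 0.0038), a value that is uncertain because MAGEA9 is a nearly identical copy. It was itself among the entries silent in line 2, at 0.366 and 0.812 RPKM in control and 0 in the ARID1A+/- library. Against control it passed as lower in line 2 (-4.98 ± 0.79, edgeR adjusted p = 0.011) and did not pass in line 1 (1.39 ± 0.43, edgeR adjusted p = 0.086). The 5 tested neighbours of SPIN3 lay between -0.42 and 0.05 and did not pass, among them its paralog SPIN2B at 8.46 and 7.98 RPKM in line 1 (-0.42 ± 0.19, edgeR adjusted p = 0.21) and UBQLN2 (-0.06 ± 0.13, edgeR adjusted p = 0.80). The nearest tested neighbours of SPIN3 and AFF2 had reads in line 1, and DNA copy number was not analysed. Some untested neighbours had next to none in any library: FMR1NB beside AFF2 had at most 2 counts and FAAH2 near SPIN3 at most 4, both with 0 in line 1.

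Among genes missing from line 2, only HDHD3 had a neighbour that passed. RGS3, a regulator of G-protein signalling, was at 1.05 and 0.814 RPKM in control, 1.303 and 1.197 in line 1, 0.278 and 0.185 in line 2, with 1.75 in the ARID1A+/- library. It was higher in line 1 than in line 2 by 2.49 ± 0.20 (edgeR adjusted p = 0.0014) and fell in line 2, with a log2 difference from control of -2.05 ± 0.20. The nearest genes to HDHD3 did not pass, WDR31 at 0.75 ± 0.23 (edgeR adjusted p = 0.090) and ALAD at -0.09 ± 0.13 (edgeR adjusted p = 0.71). The 6 tested neighbours of EFS lay between -0.74 and 0.53 and did not pass, the nearest being SLC22A17 (0.53 ± 0.22, edgeR adjusted p = 0.17) and NGDN (-0.09 ± 0.14, edgeR adjusted p = 0.73). RDM1 had 1 tested neighbour, TAF15 (0.12 ± 0.11, edgeR adjusted p = 0.55). TRIM58 and TRIM21 lie among olfactory receptor genes, and none of their neighbours was expressed enough to test. OR2W3, beside TRIM58, had 20 and 4 counts in line 1 and 0 in the 5 other libraries.

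**Figure D3:**
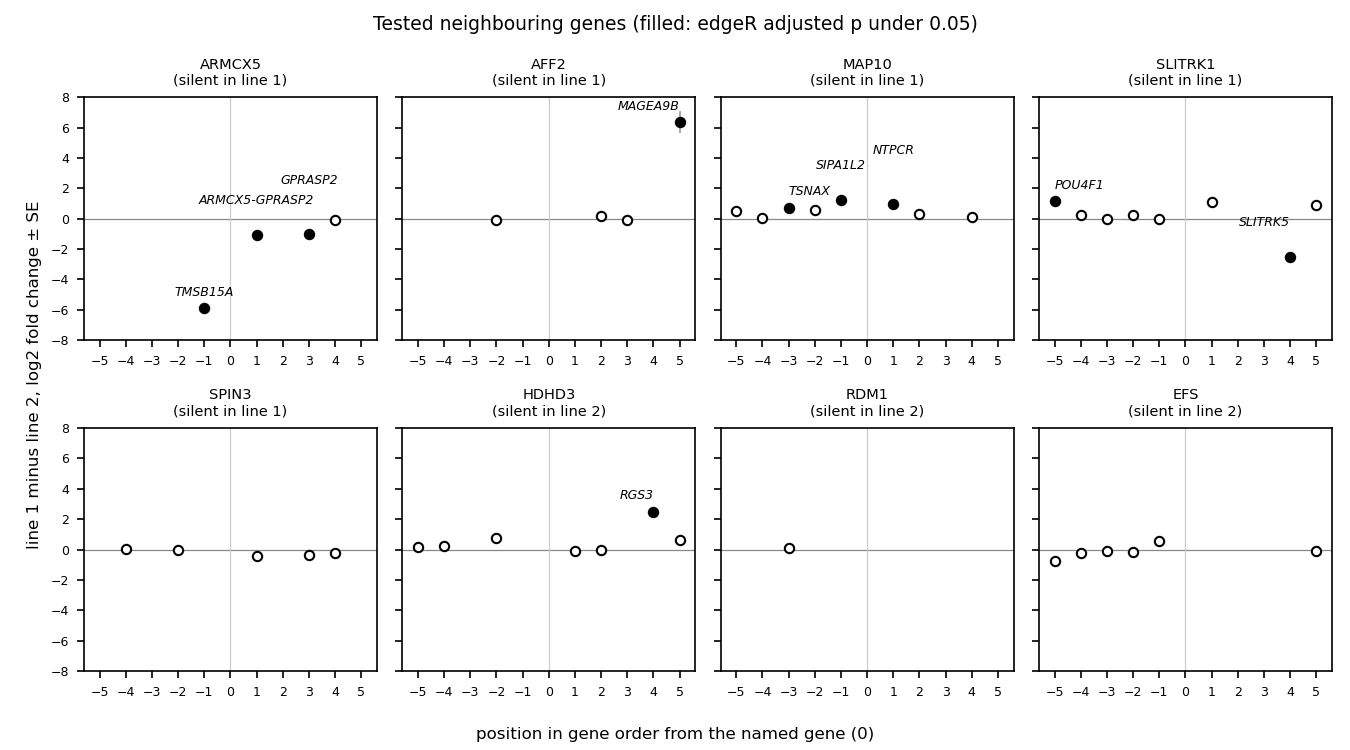
Log2 difference, line 1 minus line 2, of the tested genes on either side of each member, by place in gene order with the member at 0, with standard errors and filled points for those that passed; TRIM58 and TRIM21 had no tested neighbour. TMSB15A at -5.91 near ARMCX5 and SLITRK5 at -2.54 near SLITRK1 were low in line 1, which lacked the nearby member. RGS3 at 2.49 near HDHD3 was low in line 2, although control and the ARID1A+/- library hardly had HDHD3 either. The genes beside SPIN3 (-0.42 to 0.05) and EFS (-0.74 to 0.53) did not pass.

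Relatives and partners of the 10 genes, 138 genes in 9 lists, gave a share of calls like that of all genes. Of 115 tested, 13 passed between line 1 and line 2 (11.3%, against 12.8% of all genes), 4 higher and 9 lower in line 1. With no term for the kit, 2 of the 115 passed, beside 408 of all 14711 genes tested. In the ARID1A+/- library against control, 1 was higher and 3 lower, against 3.3% of all genes (2.15% lower).

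Several relatives of ARMCX5 rose in the ARID1A-/- lines. Of 6 tested ARMCX and GPRASP genes, 4 rose in line 2 against control (against 5.33% of all genes called higher and 13.9% called either way) and 2 in line 1 (against 4.64% higher and 12.9% either way). ARMCX4 rose in both, by 0.94 ± 0.14 in line 1 (edgeR adjusted p = 0.0089) and 1.02 ± 0.14 in line 2 (edgeR adjusted p = 0.0064), and so did ARMCX6, by 0.70 ± 0.15 and 0.80 ± 0.15. ARMCX3, a mitochondrial outer membrane protein, was at 7.36 and 10.0 RPKM in control, 11.6 and 12.8 in line 1 and 20.4 and 18.5 in line 2. It was lower in line 1 than in line 2 (-0.63 ± 0.16, edgeR adjusted p = 0.045), a call that was lost when any one of the 6 libraries was left out, at -0.42 to -0.80.

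Among relatives of AFF2, AFF3 was at 4.39 and 4.35 RPKM in control, 1.26 and 1.14 in line 1, 3.91 and 3.39 in line 2, with 3.15 in the ARID1A+/- library. It fell in line 1, with a log2 difference of -1.86 ± 0.14 from control (edgeR adjusted p = 0.00091) and of -1.56 ± 0.14 from line 2 (edgeR adjusted p = 0.0020). It was the only one of 13 tested genes of the AFF and super elongation complex list that differed between the lines. The same held for MAPT, which encodes tau, among 14 microtubule-associated proteins. It was at 2.65 and 0.95 RPKM in control, 1.44 and 0.72 in line 1, 6.08 and 2.26 in line 2, with 0.28 in the ARID1A+/- library, and differed by -1.83 ± 0.19 (edgeR adjusted p = 0.0026). Of the receptor phosphatases that bind SLITRK proteins, PTPRD and PTPRF fell in both lines: the log2 difference from control of PTPRD was -1.41 ± 0.19 in line 1 (edgeR adjusted p = 0.0060) and -1.22 ± 0.19 in line 2 (edgeR adjusted p = 0.0095), and that of PTPRF -1.06 ± 0.25 and -1.15 ± 0.25. Including SLITRK5, 3 of the 6 tested genes of that list fell in each line (against 8.22% of all genes called lower in line 1 and 8.52% in line 2), with medians over the list of -0.65 and -0.79. Of the 5 tested spindlin genes none passed between the lines by edgeR, DESeq2 or limma, and 1 had an unadjusted edgeR p under 0.05. SPIN1 was at 23.3 and 31.2 RPKM in line 1.

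Relatives of the genes missing from line 2 moved in both directions. Of 32 tested TRIM genes, 3 rose and 3 fell against control in each line, against 12.9% of all genes called in line 1 and 13.9% in line 2. Between the lines 3 were higher in line 1 and 2 lower, led by TRIM67 (0.61 ± 0.11, edgeR adjusted p = 0.018), TRIM68 (1.13 ± 0.23, edgeR adjusted p = 0.024) and TRIM36 (-1.08 ± 0.23, edgeR adjusted p = 0.029). TRIM68, which lies on chromosome 11 as TRIM21 does, was at 2.987 and 4.999 RPKM in line 1 and 1.84 and 1.80 in line 2. The 12 HAD-like hydrolases, relatives of HDHD3, had a median difference of -0.24, and 1 of the 12 passed, lower in line 1. Among 17 homologous recombination genes NBN, a subunit of the MRN complex, was higher in line 1 (0.61 ± 0.13, edgeR adjusted p = 0.031), while RAD52, whose motif gives RDM1 its name, differed by 0.09 ± 0.20. Among 10 CAS scaffolds and partners SH2D3C was lower in line 1 (-1.02 ± 0.25, edgeR adjusted p = 0.043). NEDD9, a CAS-family relative of EFS, rose in both lines against control, by 1.79 ± 0.43 in line 1 (edgeR adjusted p = 0.042) and by 2.95 ± 0.43 in line 2 (edgeR adjusted p = 0.0077). Calls in this group of lists were less stable. Without the KAPA library of line 2 the calls of TRIM67 (0.63), TRIM68 (0.93), TRIM36 (-0.80), NBN (0.44) and SH2D3C (-1.18) were lost. Without the SMARTer library of line 2 those of TRIM67 (0.62), TRIM68 (1.36), NBN (0.81) and SH2D3C (-0.80) were lost, and without the KAPA library of line 1 those of TRIM68 (0.83), TRIM36 (-0.92) and SH2D3C (-0.79). Without the SMARTer control library TRIM68 (1.13), TRIM36 (-1.07) and NBN (0.62) lost theirs, and without the KAPA control library TRIM68 (1.12) and TRIM36 (-1.07).

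**Figure D4:**
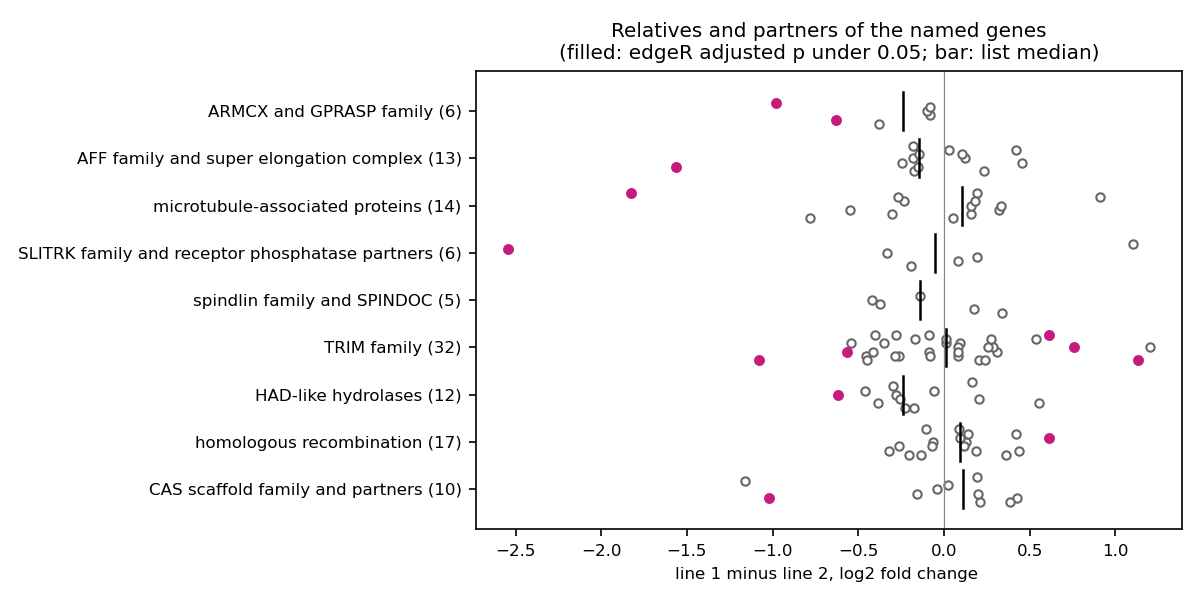
Log2 difference, line 1 minus line 2, of the tested genes in each list of relatives and partners, 1 point per gene, with those that passed filled, the number tested in brackets and a bar at the median. Most genes lie near 0, and AFF3 at -1.56, MAPT at -1.83 and SLITRK5 at -2.54 stand apart.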

How the data were processed

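Polyadenylated or ribosome-depleted RNA of 7 libraries was sequenced with single-end reads, and per the submitters' processing notes HISAT2 2.1.0 and the hg19 build were used. Which program counted the reads, and whether by strand, is not given in the sources used here. Each deposited table holds whole-number counts per gene, the gene's length in bases and an RPKM value. The deposited RPKM could be recomputed from the deposited counts, lengths and library totals to within 0.000501%.

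The 10 genes and all lists were chosen with earlier results of these data known. Genes averaging 0.5 RPKM or more across the control and ARID1A-/- libraries (14711 of 28517, including all 10) were tested with edgeR 4.0.16 (R 4.3.3) quasi-likelihood on TMM-scaled counts, a term for the kit and Benjamini-Hochberg adjustment, threshold 0.05. The ARID1A+/- library adds no estimate of spread. Changes are log2 values with standard errors from the F statistic. DESeq2 1.42.0, limma 3.58.1 on log2(RPKM + 1), other filters and leaving out each library were alternatives. The method was tested on simulated data. Replicate numbers mark the kit, per the labels, and same-kit libraries deviated together (correlations 0.51, 0.63 and 0.45 over genes), so the kit was a block.

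Folds of members are ratios of TMM-scaled counts summed over a group, against a floor of 3 counts where the group had none, with exact binomial 95% intervals. Intervals and floors cover counting error only. Named were the 10 genes, neighbours that passed between the lines and the nearest tested on each side, up to 3 passing genes per list with the smallest p, and the 5 named entries per line with the highest level among those silent in it. Some genes that the rule or the marker lists name are not reported here. Values of a few other list members, of GPRASP1, OR2W3 and of entries at the border were added after they were seen. RefSeq tables of GRCh38.p14 gave gene order and promoters only.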

Additional observations from a re-analysis of the deposited data

Results flagged for a closer look

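Of the genes near or related to the 10 that differed between the ARID1A-/- lines, 18 are named here. They passed a test of the difference itself, so that the effect against the shared control was not the same in both. The test was the direct difference, line 1 minus line 2, by edgeR. Lower in line 1, on the log2 scale, were TMSB15A (-5.91), SLITRK5 (-2.54), MAPT (-1.83), AFF3 (-1.56), ARMCX5-GPRASP2 (-1.08), TRIM36 (-1.08), SH2D3C (-1.02), GPRASP2 (-0.98) and ARMCX3 (-0.63). Higher in line 1 were MAGEA9B (6.37), RGS3 (2.49), SIPA1L2 (1.21), POU4F1 (1.15), TRIM68 (1.13), NTPCR (0.95), TSNAX (0.72), TRIM67 (0.61) and NBN (0.61). AFF3, RGS3, SIPA1L2, SLITRK5, TMSB15A and MAGEA9B passed under every alternative that gave them a value. TMSB15A was low in line 1, which lacked ARMCX5. RGS3 was low in line 2, which lacked HDHD3. Control and the ARID1A+/- library hardly had HDHD3 either and kept RGS3, and a link between these genes was not tested. SIPA1L2, next to MAP10, passed against control as lower in line 2 (-0.92 ± 0.11, edgeR adjusted p = 0.0038). In line 1 it did not pass against control (0.29 ± 0.11, edgeR adjusted p = 0.14).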

How the results depend on the processing

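The choice of the 10 genes fixed the sign of their difference between the ARID1A-/- lines, so other pseudocounts (0.5 and 0.1) or a library left out do not bear on it. The number of genes that passed depended on the model. With no replicate block, that is no term for the kit, 474 genes passed for line 1 against control (1892 with it), 522 for line 2 against control (2038), 408 for line 1 against line 2 (1885), 70 for the ARID1A+/- library against control (485), 5 neighbours (10) and 2 list genes (13), and 12 of the 18 named genes lost their call. Leaving out 1 library gave 369 to 3035, 337 to 3721, 732 to 2414 and 57 to 1170 genes for the same comparisons, 8 to 12 neighbours and 4 to 16 list genes. For KAPA against SMARTer (1948) it gave 0 to 2888, with 0 by edgeR without either control library, where 3031 and 3102 genes had an unadjusted p under 0.05. The ARID1A+/- comparison called 855 with DESeq2, 263 with limma and 862 with no filter on low values, the neighbours 16 with no filter and the list genes 7 with limma. Limma split the kit calls into 1972 higher and 609 lower with KAPA, against 782 and 1166. Entries silent in one line numbered 130, 38 at limits of 0.05 and 1 RPKM, 201 at 0.2 and 0.5, 23 at 0.1 and 2, and 193 to 222 with a library left out, when 1 library of a line had to meet the limit. Of the recomputed differences of the 18 named genes, 148 kept their call, 49 lost it and 0 reversed. A library left out assumes that the lone one varies like the others. Having 7 libraries limits every comparison, and counts near 0 limit TRIM58 and HDHD3 in control.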
